A study of Danio rerio with 36 samples.

Results

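Whole zebrafish larvae carrying a kctd15 mutation were compared with wild-type larvae at 9 days of age, across all genes that passed a count filter. The comparison used 6 of the 36 RNA-seq libraries of the series, 3 from kctd15 mutant larvae and 3 from wild-type larvae, and 22143 of the 30490 genes in the deposited gene table passed the filter. The series also holds mutant and wild-type libraries at 1 somite, 25 hours, 2 day, 5 day and 14 day, and the 5 day and 14 day larvae are used below to ask whether the effect at 9 day differed from that of the neighbouring stages. The fish were kept at 28.5 degrees and larvae were fed, with no transgene or treatment named for any group. RNA with polyA tails was sequenced after strand-specific library construction. The labels give 3 biological replicates per group, but neither the number of larvae in a library nor whether the lesion lies in kctd15a, in kctd15b or in both, so p-values measure the spread between these libraries.

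KCTD15 is a BTB-domain protein of the potassium channel tetramerisation domain family that limits neural crest formation in zebrafish embryos and represses transcription factors of the AP-2 family by binding their activation domain. In humans, variants near KCTD15 have been linked to body mass index. At 9 day the larva feeds on its own, its lens and retina are still growing, and its liver, exocrine pancreas and intestine are active, so RNA of the whole animal mixes all of these tissues. In such samples, fewer cells of a type and less RNA per cell cannot be told apart.

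The libraries held 8151850 to 10245938 estimated counts in mutants and 9428729 to 10194737 in wild types, and the 50 most counted genes took 20.5 to 22.8% of the counts in mutants and 19.4 to 21.7% in wild types. Genes of the larval tissues were present. Summed over the genes tested, lens genes held 7280 to 8679 CPM (counts scaled to a common library size) in mutants and 4370 to 5759 CPM in wild types. The fast muscle list held 93480 to 114200 CPM in mutants and 86650 to 99810 CPM in wild types, and liver plasma protein genes held 23350 to 24780 CPM in mutants and 24900 to 25960 CPM in wild types. Only 8 of 32 germ cell genes passed the filter. Libraries of one genotype differed by more than counting noise, with chi-square values of 5.18 to 10.1 per degree of freedom.

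At 9 day 422 genes differed between mutant and wild type at an adjusted p under 0.05 (edgeR's quasi-likelihood test, Benjamini-Hochberg adjustment over all 22143 genes), 1.91% of the genes tested. Such genes are said to be called here. Of these, 174 were higher in mutants (0.786% of genes tested) and 248 were lower (1.12%). At least a 2-fold change was seen in 74 of the higher and 185 of the lower genes, and the median log2 fold change was 0.86 among the higher and -1.59 among the lower genes, against 0.004 over all genes. With scaling by library size alone, 132 genes were higher and 331 lower, 28.5% higher against 41.2% with the TMM factors used here. In all 422 genes the 3 mutant libraries lay wholly above or below the 3 wild-type libraries, as did 21.5% of all genes tested (10.8% with mutants above and 10.6% with mutants below). Leaving out mutant 1, mutant 2, mutant 3 or wild type 3 lowered the count to 205, 269, 221 and 244. Among the called genes, 235 (55.7%) had only a clone or locus name, against 29.3% of the genes tested.

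**Figure D1:**
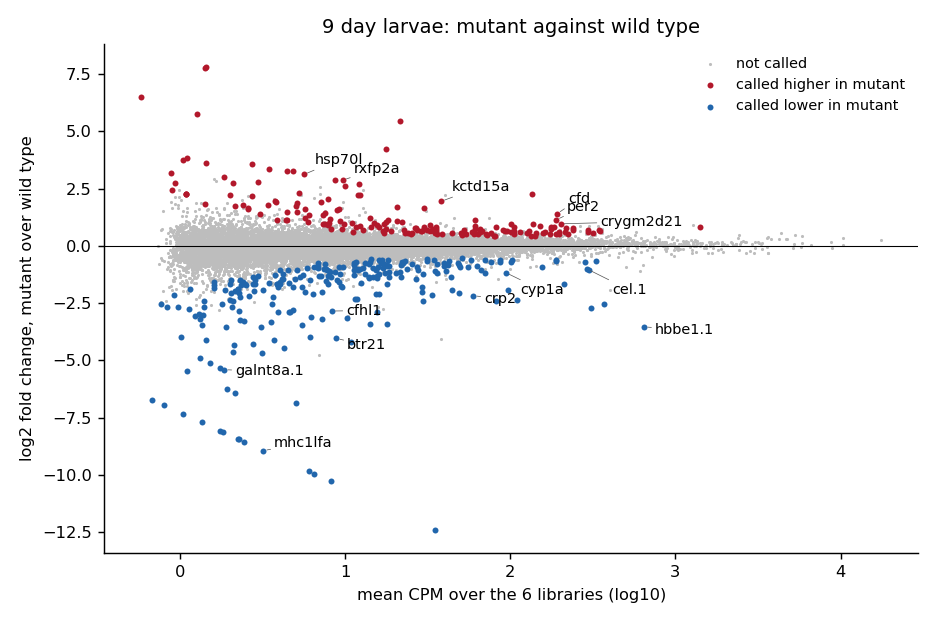
Each point is a gene tested at 9 day, with its mean level over the 6 libraries (CPM, log10 scale) on the x axis and its log2 fold change, mutant over wild type, on the y axis. Red points are the 174 genes called higher and blue points the 248 called lower in mutants, and fitted values of genes with 0 counts in a group depend on the prior count. The falls reach further from 0 than the rises.

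RNA of kctd15a stood out in every mutant library. It had 57.1, 60.6 and 64.3 CPM in mutants 1 to 3, against 13.9, 16.3 and 16.9 CPM in wild types 1 to 3. The paralog kctd15b had 12.6, 17 and 14.9 CPM in mutants and 7.68, 7.76 and 6.53 CPM in wild types. Groups did not overlap for either gene, and both rose, kctd15a by 1.95 ± 0.11 (log2, SE; edgeR adjusted p = 0.000157) and kctd15b by 1.01 ± 0.16 (edgeR adjusted p = 0.0132, lost without wild type 3 at 0.0514). Both being higher in mutants, their RNA does not check which animals carry a lesion. kctd1, the closest relative, had a log2 fold change of 0.51 ± 0.19 and did not pass (edgeR adjusted p = 0.22). Neither kctd15 gene differed in its effect from 5 day (edgeR adjusted p = 0.952 for kctd15a and 0.701 for kctd15b) or from 14 day (0.931 and 0.722). When the annotated genes were put in genome order, 0 of the 50 tested genes nearest to kctd15a were called, and 1 of the 50 nearest to kctd15b, cyp1a, 14 genes away. Of all genes tested 1.91% were called, so both counts were near that share.

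The AP-2 genes, whose products KCTD15 binds, did not pass. tfap2c had 94.3, 106 and 84.9 CPM in mutants and 139, 115 and 134 CPM in wild types, a log2 fold change of -0.45 ± 0.11 (edgeR adjusted p = 0.0817). Its groups did not overlap, and it passed with DESeq2 (adjusted p = 0.0361), with scaling by library size alone (0.0365) and in a fit of all libraries (0.0228). tfap2a overlapped between genotypes and did not pass, with 64.6 ± 2.11 CPM in mutants and 64.7 ± 5.56 CPM in wild types (SD, n = 3 each; log2 -0.003 ± 0.10). tfap2b (0.16 ± 0.18) and tfap2e (0.37 ± 0.20) also did not pass. Of 19 neural crest genes, of 15 appetite and hypothalamic peptide genes and of 12 pituitary and growth axis genes tested, 0 were called in edgeR, with median log2 fold changes of 0.07, 0.03 and -0.10. At an unadjusted p under 0.05 there were 1, 1 and 0 of them, and DESeq2 also called 0.

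**Figure D2:**
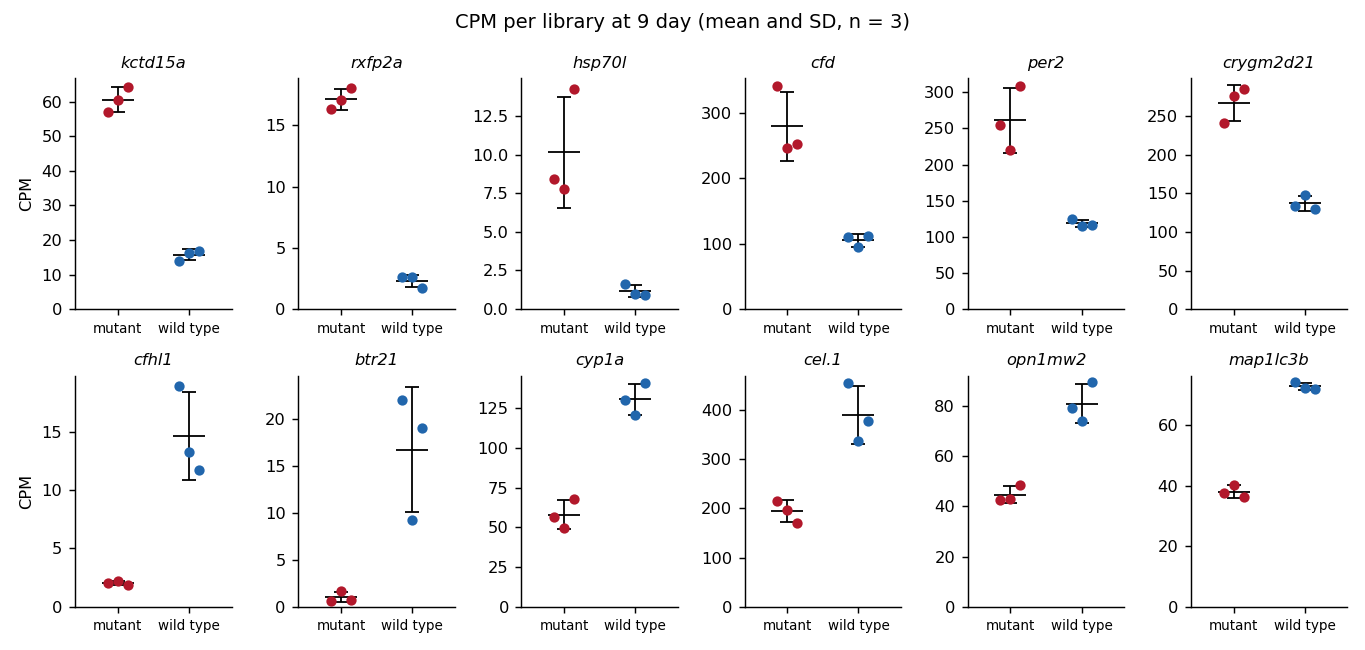
Each panel shows one gene at 9 day, with CPM on the y axis (from 0) and the 3 mutant libraries left of the 3 wild-type libraries. Points are libraries, and bars give the mean and SD. The upper row holds genes called higher in mutants and the lower row genes called lower, and the groups do not overlap in any panel.

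The largest falls were of genes that were close to absent in mutants. Among them 3 with gene names, the MHC class I genes mhc1lfa and mhc1lja and the secreted matrix protein gene ecm1a, had 0 counts in all mutant libraries. mhc1lfa had 0, 0 and 0 CPM in mutants, against 8.59, 8.72 and 1.94 CPM in wild types, at least 58.8-fold lower when 3 counts are allowed over the mutant group (edgeR adjusted p = 0.0138). mhc1lja was at least 41.0-fold lower (edgeR adjusted p = 0.0244) and ecm1a at least 41.3-fold lower (edgeR adjusted p = 0.0156). Wild types were themselves uneven, with 8.49, 2.49 and 2.76 CPM for ecm1a and 8.08, 4.12 and 1.33 CPM for mhc1lja. Leaving out wild type 2 or mutant 1, 2 or 3 ended the mhc1lja call (edgeR adjusted p = 0.0517, 0.0691, 0.0567 and 0.0748), and all 3 calls were lost with a robust dispersion (0.105, 0.125 and 0.0587 for mhc1lfa, mhc1lja and ecm1a). The other L-lineage class I genes tested, mhc1laa (log2 0.05 ± 0.22) and mhc1lia (-0.45 ± 0.24), did not pass, and estimated counts can be split between such similar genes.

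A further 2 genes of this kind kept 2 counts over the mutant group. galnt8a.1, a GalNAc transferase that starts O-linked glycosylation, had 0.11, 0 and 0.10 CPM in mutants and 4.65, 3.16 and 3.16 CPM in wild types, 49.7-fold lower with a 95% counting interval of 13.5 to 416 (edgeR adjusted p = 0.0014). kbtbd7, a kelch and BTB adaptor of ubiquitin ligases, had 0.22, 0 and 0 CPM in mutants and 1.82, 4.41 and 2.65 CPM in wild types, 40.7-fold lower with an interval of 10.9 to 341 (edgeR adjusted p = 0.00852). Both calls held without any 1 library. In all, 14 genes called lower had 0 counts in mutants, 3 of them with a gene name, and 3 genes called higher had 0 counts in wild types. At 9 day galnt8a.1 and kbtbd7 could pass the count filter only through the wild types, so the direction of a call was largely fixed in advance. The 3 genes with 0 counts in wild types could likewise pass only through the mutants. For the 14 genes with 0 counts in mutants, too, the direction of a call was largely fixed in advance. In other larvae, 4 of them were tested at 5 day and 3 were called lower (7.84% of all genes tested there were), and 12 were tested at 14 day and 12 were called lower (2.5% of all genes). In 14 day mutants the named ecm1a, mhc1lja and mhc1lfa averaged 0, 0 and 0.03 CPM, against 4.71, 2.93 and 5.54 CPM in wild types. Such genes could pass the filter at 14 day, too, only through the wild types, so a call in that direction was largely fixed in advance. The share of all genes is therefore no fair yardstick, and these counts are given as a description. The gene with the largest such bound, LOC799643, was picked after its values were seen. It had 0 CPM in every mutant and 131, 7.19 and 73.1 CPM in wild types, at least 631-fold lower (edgeR adjusted p = 0.026).

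Large falls were also seen in single genes of several other families. btr21, a TRIM ubiquitin ligase of the bloodthirsty-related family, had 0.65, 1.71 and 0.77 CPM in mutants and 21.9, 9.2 and 19.0 CPM in wild types, 16.5-fold lower (log2 -4.04 ± 0.42, edgeR adjusted p = 0.00161). btr22 was 9.76-fold lower (-3.29 ± 0.58, edgeR adjusted p = 0.021), a call that ended when wild type 1 or 3, or mutant 2 or 3, was left out (0.0577, 0.0636, 0.061 and 0.0735). Over the btr family 3 of 16 genes were lower and 0 higher, and over the related ftr family 4 of 45 were lower and 0 higher. Of all genes tested 1.12% were lower and 0.786% higher. Both families were counted after these values were seen. irgf3, an interferon-inducible GTPase of the IRG family, had 0.22, 0.39 and 0.77 CPM in mutants and 3.23, 6.52 and 7.45 CPM in wild types (-3.56 ± 0.47, edgeR adjusted p = 0.00555). cfhl1, related to the complement regulator factor H, had 2.05, 2.23 and 1.83 CPM in mutants and 18.9, 13.2 and 11.7 CPM in wild types, 7.18-fold lower (edgeR adjusted p = 0.000625). cbln6, a secreted protein of the cerebellin family, was 10.1-fold lower (0.54, 1.05 and 0.39 CPM in mutants, 5.35, 9.49 and 4.49 CPM in wild types, edgeR adjusted p = 0.00507). The calls of btr21, irgf3, cfhl1 and cbln6 held without any 1 library. However, btr21, btr22, irgf3 and cbln6 averaged 1.04, 0.46, 0.46 and 0.66 CPM in mutants and passed the count filter through the wild types. The direction of their calls was therefore largely fixed in advance. For the btr count, which includes btr21 and btr22, the share of all genes is thus no fair yardstick.

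Called genes often had a called neighbour. Of 19559 tested genes that could be put in genome order by name with RefSeq's gene table, 181 were called lower, and 48 of these (26.5%) had another gene called lower among the 5 tested genes on either side, against 7.74% of genes not called. For genes called higher the share was 35 of 135 (25.9%), against 5.63%. Tandem copies such as the crystallin genes are alike in sequence, so estimated counts may be shared between neighbours, and the part of this in these shares was not tested.

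The largest rises among named genes were of genes with few CPM in wild types. hsp70l, a heat-inducible chaperone gene, had 8.42, 7.75 and 14.3 CPM in mutants and 1.62, 0.96 and 0.92 CPM in wild types, 8.71-fold higher (log2 3.12 ± 0.33, edgeR adjusted p = 0.00169). rxfp2a, which encodes a receptor of the relaxin peptide family, had 16.3, 17.1 and 18 CPM in mutants and 2.63, 2.59 and 1.74 CPM in wild types, 7.35-fold higher (2.88 ± 0.19, edgeR adjusted p = 0.00017). rnh1, named for the ribonuclease inhibitor, had 26.6, 19.6 and 13.4 CPM in mutants and 5.66, 4.12 and 2.86 CPM in wild types (2.23 ± 0.29, edgeR adjusted p = 0.00507). In all 3 the lowest mutant was well above the highest wild type. her15.1, a transcription factor gene of the hairy family that Notch signalling turns on, rose by 1.6 ± 0.23 (13.8 ± 2.81 CPM in mutants, 4.52 ± 1.24 CPM in wild types, edgeR adjusted p = 0.00757). These 4 calls held without any 1 library. However, hsp70l averaged 1.16 CPM in wild types and passed the count filter through the mutants. The direction of its call was thus largely fixed in advance.

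The calls of 3 other genes among the 10 largest rises depended on the libraries used. enpp7.2, a phosphodiesterase whose mammalian relative digests sphingomyelin in the gut, rose by 1.49 ± 0.23 (6.58 ± 1.18 CPM in mutants, 2.32 ± 0.32 CPM in wild types, edgeR adjusted p = 0.0121), lost without wild type 3 (0.0502). pebp4 (1.82 ± 0.37, edgeR adjusted p = 0.0376) was called with all libraries and without mutant 2, and lost without any of the others (up to 0.156) and with DESeq2 (0.0555). Its wild types averaged under 1 CPM, so pebp4 passed the count filter through the mutants. The direction of that call was largely fixed in advance. plekhb1 (1.67 ± 0.36, edgeR adjusted p = 0.0498) was called with all libraries and without wild type 3, and lost without any of the others (up to 0.187). Among genes without a symbol of their own, si:ch211-114n24.6 was picked after its values were seen for its level: it had 215, 286 and 176 CPM in mutants and 73.2, 33.5 and 34.1 CPM in wild types (2.26 ± 0.29, edgeR adjusted p = 0.00496).

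More lens genes were called than genes of any other list. Crystallins are the proteins that fill lens fibre cells and give the lens its refractive power, and the fish gamma M crystallins are a large family of near copies. Of 53 lens genes tested, 18 rose (34%, against 0.786% of all genes), 0 fell and 35 did not pass. The median log2 fold change was 0.57, against 0.004 over all genes. The mutant libraries lay wholly above the wild types for 37 of the 53 (10.8% of all genes tested did so), and 49 had a positive fold change. Summed CPM of the list was 7331, 7280 and 8679 in mutants 1 to 3, against 4370, 5759 and 4830 in wild types 1 to 3. Wild type 2 was the highest wild type, and it stayed below the lowest mutant.

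Within the gamma M2 family, 14 of 23 genes rose and 0 fell, against 0.786% and 1.12% of all genes tested. The family is not itself one of the gene lists, and its members are among the largest rises of this comparison. Its counts are therefore given as a description. Of these 14, 12 stand in the lens list and 2 (crygm2d11 and crygm2d19) do not. The family's summed level was 4363 ± 367 CPM in mutants and 2821 ± 192 CPM in wild types (SD, n = 3 each), 1.55-fold higher. crygm2d21 had 241, 276 and 285 CPM in mutants and 134, 147 and 130 CPM in wild types (log2 0.97 ± 0.10, edgeR adjusted p = 0.00166). crygm2d17 had 162, 175 and 205 CPM in mutants and 86.4, 101 and 92.3 CPM in wild types (0.96 ± 0.11, edgeR adjusted p = 0.00274). crygm2d3 (0.84 ± 0.10), crygm2d2 (0.84 ± 0.10) and crygm2d4 (0.76 ± 0.10) followed, with 235 ± 23.0, 225 ± 26.4 and 303 ± 31.8 CPM in mutants, against 131 ± 2.46, 126 ± 4.43 and 179 ± 10.4 CPM in wild types. These 5 calls held without any 1 library. crygm2d6 (0.73 ± 0.14, edgeR adjusted p = 0.0296) was lost without any library other than wild type 1, at up to 0.104. Because kallisto divides reads among near-identical transcripts, levels of single members are uncertain. The family sum does not depend on the division among its 23 genes. Sharing of reads with crystallin genes outside the sum was not tested.

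The other 6 called genes of the lens list were the beta crystallin gene cryba2b (0.53 ± 0.11), the fibre membrane protein genes lim2.1 (0.64 ± 0.11), lim2.4 (0.61 ± 0.10) and lim2.5 (0.76 ± 0.14), the beaded filament gene bfsp2 (0.71 ± 0.15) and lctla (0.95 ± 0.17), all named here after their values were seen. cryba1a, with the largest value in the list (1.47), and bfsp1 (1.14) did not pass, and the alpha crystallin gene cryabb had the lowest value, -0.19, these too picked after their values were seen. Leaving out wild type 3 lowered the number of called lens genes to 6, and leaving out mutant 1 or mutant 3 lowered it to 10 each, with the list's median between 0.52 and 0.68 in all 6 such fits. With DESeq2 28 lens genes were called.

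**Figure D3:**
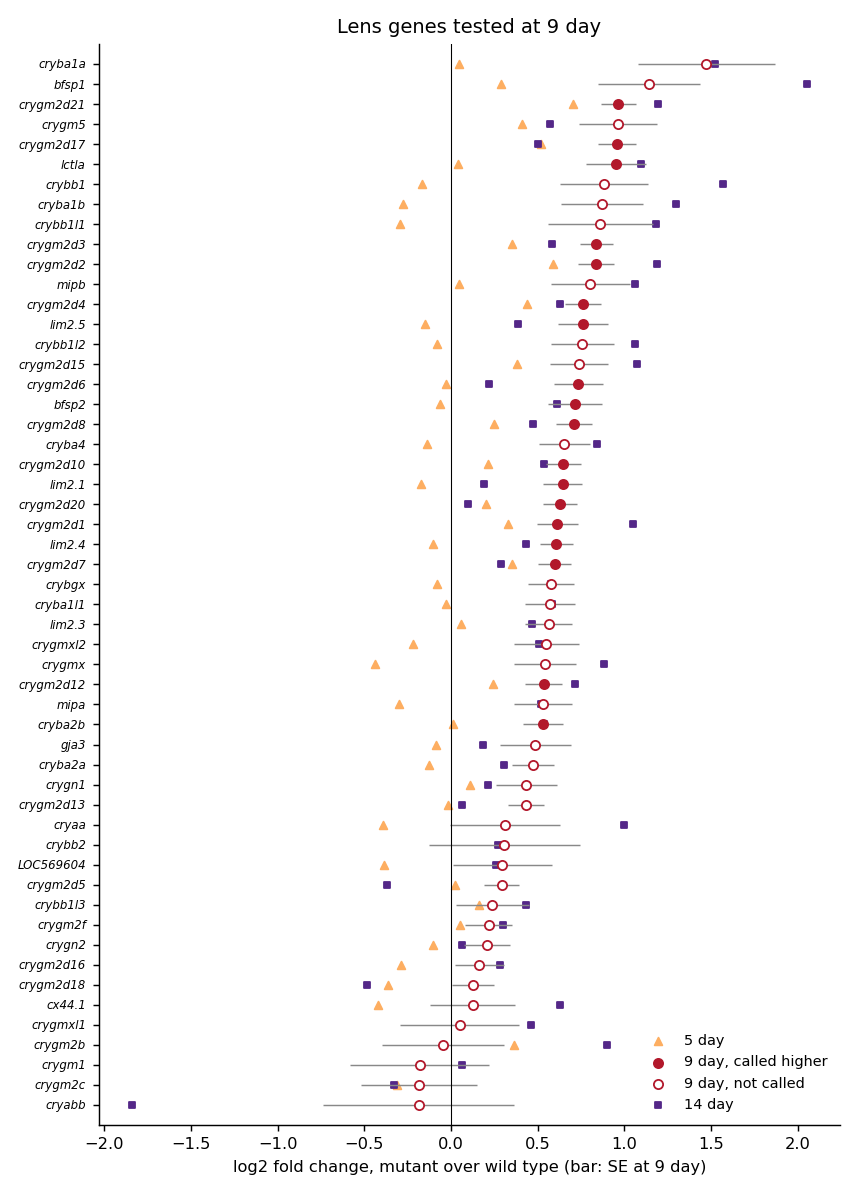
Each row is a lens gene tested at 9 day, ordered by its log2 fold change, mutant over wild type, on the x axis. Circles show 9 day (filled where called, with SE), triangles 5 day and squares 14 day. At 9 day 49 of 53 genes lie right of 0, and the median of the list was -0.02 at 5 day and 0.50 at 14 day.

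In other larvae, the lens list had 5 of 49 genes higher and 0 lower at 5 day (median -0.02; 6.17% of all genes tested there were higher) and 8 of 59 higher and 1 lower at 14 day (median 0.50; 2.31% higher). Of 53 lens genes, 1 (lim2.1) passed the test of the difference between the 9 day and 5 day effects (0.77, edgeR adjusted p = 0.0253), so for the others the stages were not shown to differ. With age many of these genes were lower in wild types: 40 of 58 were lower and 13 higher in 14 day than in 5 day wild types (median -1.29; 24% of all genes were called lower and 25.5% higher).

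Photoreceptor genes were called in both directions. Of 52 tested 2 rose (3.85%, against 0.786% of all genes), 2 fell (3.85%, against 1.12%) and 48 did not pass. Of the 52, 43 had a positive fold change, and the median was 0.30. The mutant libraries lay wholly above the wild types for 14 of them and wholly below for 2, against 10.8% and 10.6% of all genes tested. rcvrn3, a recoverin that tunes phototransduction, had 118 ± 22.9 CPM in mutants and 74.4 ± 7.16 CPM in wild types (0.67 ± 0.14, edgeR adjusted p = 0.044), and guca1c, a guanylate cyclase activator, had 33.4 ± 6.52 CPM in mutants and 19.7 ± 2.32 CPM in wild types (0.77 ± 0.15, edgeR adjusted p = 0.0367). Each was called with all libraries or without mutant 2 alone (otherwise up to 0.151 and 0.124), and not with scaling by library size. opn1mw2, one of the green cone opsin genes, had 42.4, 43.0 and 48.5 CPM in mutants and 79.2, 74.2 and 89.5 CPM in wild types, and its groups were far apart (-0.86 ± 0.10, edgeR adjusted p = 0.00395). Its call held without any 1 library, while the tandem copy opn1mw1 (0.28 ± 0.10, edgeR adjusted p = 0.207) did not pass, and the 2 green opsins summed to 373 ± 4.0 CPM in mutants and 352 ± 29.2 CPM in wild types. zgc:112320, listed in the reference under the synonym pde6ga, a subunit of the rod phosphodiesterase, fell by 1.05 ± 0.22 on the log2 scale (edgeR adjusted p = 0.0412), a call kept only without wild type 1 among the leave-one-out fits.

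Clock genes included per2 and several photolyase and cryptochrome genes among the rises. per2, a light-induced repressor of the clock, had 255, 219 and 309 CPM in mutants and 124, 115 and 117 CPM in wild types (1.14 ± 0.13, edgeR adjusted p = 0.00194), and every mutant library was far above the wild types. cry5, a 6-4 photolyase gene, had 42.4 ± 5.00 CPM in mutants and 25.6 ± 4.03 CPM in wild types (0.73 ± 0.14, edgeR adjusted p = 0.0279). cry-dash (0.57 ± 0.10) and the cryptochrome cry1ba (0.57 ± 0.11) were also called. Of 42 clock genes, 4 rose (9.52%, against 0.786% of all genes) and 0 fell, with a median of 0.20. The mutant libraries lay wholly above the wild types for 15 of the 42 and wholly below for 1 (10.8% and 10.6% of all genes). The per2 call held without any 1 library. The other 3 did not: cry5 missed the threshold without either of wild types 1 and 2 or mutants 1 and 3, cry-dash without any wild type or mutant 3, and cry1ba without any library but wild type 3 (edgeR adjusted p up to 0.109, 0.0742 and 0.108). per2, cry5 and cry-dash had a larger effect at 9 day than at 5 day by the test of the difference (edgeR adjusted p = 0.0335, 0.00191 and 0.00219), and cry1ba did not pass it (0.354). cry5 and cry-dash were lower in mutants at 5 day (-0.48 ± 0.10 and -0.39 ± 0.10). The labels used here give no hour of sampling.

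A further 3 chaperone genes rose beside hsp70l. hsp90aa1.1, the muscle Hsp90 gene, had 439, 426 and 413 CPM in mutants and 263, 246 and 282 CPM in wild types (0.69 ± 0.10, edgeR adjusted p = 0.00642). hspb1, a small heat shock protein, had 44.4 ± 4.75 CPM in mutants and 26.7 ± 2.08 CPM in wild types (0.73 ± 0.11, edgeR adjusted p = 0.0121). hsp70.1 averaged 11.3 ± 4.32 CPM in mutants and 2.98 ± 1.3 CPM in wild types (1.91 ± 0.35, edgeR adjusted p = 0.026), and leaving out wild type 1 or 2, or mutant 1 or 2, ended the call (0.0556, 0.0609, 0.0949 and 0.0572). Of 49 heat shock and ER stress genes 4 rose (8.16%, against 0.786% of all genes), 0 fell and 45 did not pass, with a median of 0.14. Among the 4, hsp70l passed the count filter through the mutants, so for it the share of all genes is no fair yardstick. Only 30 of the 49 had a positive fold change, and log2 values ran from -2.46 to 3.12. The mutant libraries lay wholly above the wild types for 21 of the 49 and wholly below for 0 (10.8% and 10.6% of all genes). hsp90aa1.1 and hsp70.1 also had a larger effect at 9 day than at 5 day (edgeR adjusted p = 0.0256 and 0.0359), and hsp70l and hspb1 did not pass that test (0.441 and 0.601).

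**Figure D4:**
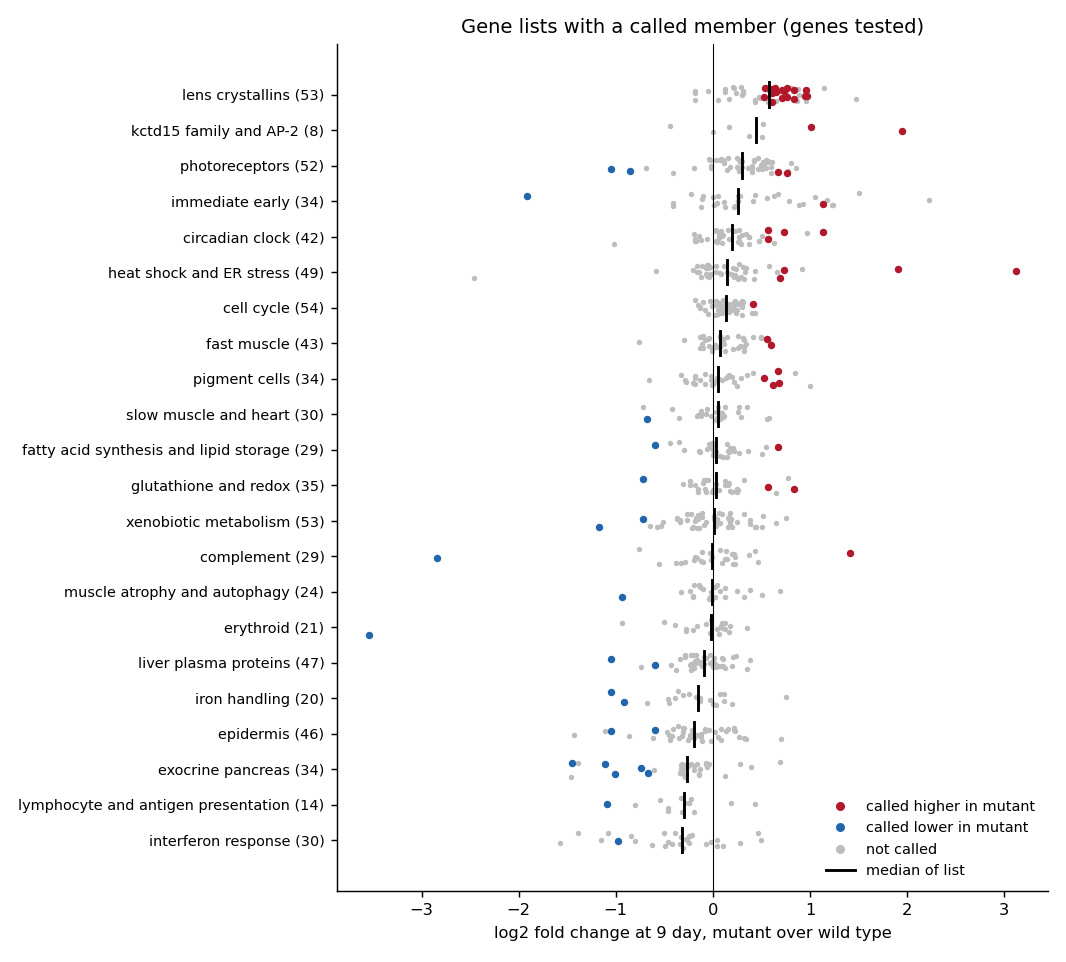
Each row is a gene list with at least 1 called member, with the number of genes tested in brackets, and each point is a gene at its log2 fold change at 9 day, mutant over wild type. Red and blue points are called higher and lower in mutants, grey points are not called, and black bars mark the median, which runs from 0.57 for lens genes to -0.32 for interferon response genes.

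Pigment genes rose in 4 of 34 cases (11.8%, against 0.786% of all genes), with 0 falls and a median of 0.05. tyrp1b and dct, enzymes of melanin synthesis, had 123 ± 18.6 and 28.1 ± 1.02 CPM in mutants, against 80.0 ± 8.26 and 17.5 ± 2.88 CPM in wild types (0.62 ± 0.13 and 0.69 ± 0.13). pmela, which forms the melanosome fibrils, rose by 0.67 ± 0.14 and atic, an enzyme of purine synthesis, by 0.53 ± 0.10. All 4 calls depended on the libraries used: they were lost in 4 or 5 of the 6 leave-one-out fits each (edgeR adjusted p up to 0.127 for tyrp1b, 0.108 for dct, 0.128 for pmela and 0.118 for atic), and 0 were left without wild type 2 or mutant 2.

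Of 34 exocrine pancreas genes 5 fell (14.7%, against 1.12% of all genes), 0 rose and 29 did not pass, with a median of -0.27. The mutant libraries lay wholly below the wild types for 12 of the 34 and wholly above for 1 (10.6% and 10.8% of all genes). cel.1, the bile-salt-activated lipase, had 216, 196 and 171 CPM in mutants and 454, 338 and 377 CPM in wild types, 2.01-fold lower (-1.0 ± 0.13, edgeR adjusted p = 0.0054). zgc:92511, listed under the elastase synonym cela1.5, had 9.50, 15.2 and 18.4 CPM in mutants and 43.7, 38.7 and 35.5 CPM in wild types (-1.45 ± 0.20, edgeR adjusted p = 0.00642). Both were well apart between genotypes, and both calls held without any 1 library. Carboxypeptidase cpa1 (-0.67 ± 0.12), endou (-0.74 ± 0.13) and zgc:92745, another elastase entry (-1.11), were also called. The summed list overlapped between genotypes, at 24250, 28020 and 23220 CPM in mutants and 35700, 27160 and 27890 CPM in wild types. Without mutant 1 only 2 of the 5 were called, and 3 each without mutant 2 or mutant 3.

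At 5 day 5 of 33 pancreas genes were higher and 0 lower (median 0.16), against 6.17% and 7.84% of all genes tested there. At 14 day 2 of 34 were higher and 4 lower (median 0.04), against 2.31% and 2.5% of all genes. cel.1 differed in its effect from 5 day, where its log2 fold change was 0.07 ± 0.09 (difference -1.11, edgeR adjusted p = 0.00234), but not from 14 day (0.02 ± 0.21, adjusted p of the difference 0.14). Of 37 intestine genes and 14 islet hormone genes 0 were called at 9 day in edgeR (8 and 4 had an unadjusted p under 0.05, and DESeq2 called 2 intestine genes lower).

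Genes of the liver and of blood proteins were called in both directions. hpx, which binds free haem in plasma, had 190, 221 and 174 CPM in mutants and 377, 501 and 329 CPM in wild types, 2.07-fold lower (-1.05 ± 0.16, edgeR adjusted p = 0.00963, lost without mutant 1 at 0.0501). cfd, the serine protease that starts the alternative complement pathway, had 340, 246 and 252 CPM in mutants and 110, 94.2 and 112 CPM in wild types, 2.65-fold higher (1.41 ± 0.14, edgeR adjusted p = 0.00136), and held without any 1 library. ahsg2, a fetuin, fell by 0.59 ± 0.12 on the log2 scale (edgeR adjusted p = 0.0365), called in leave-one-out fits only without mutant 2. Of 47 liver plasma protein genes 2 fell (4.26%), and of 29 complement genes 1 rose and 1 fell (3.45% each). Of all genes tested 0.786% rose and 1.12% fell. The effects on cfd and cfhl1 were larger at 9 day than at 14 day (difference 1.01 and -2.03, edgeR adjusted p = 0.0439 and 0.0346).

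Of 5 C-reactive protein genes tested, which encode pentraxins and stand outside the gene lists, 2 fell and 1 rose (1.12% and 0.786% of all genes did). Of the 5, 4 had a negative fold change, and the median was -1.26. Because crp2 and crp3 are among the largest changes of this comparison, the counts of this family are given as a description. crp2 had 33.6, 24.3 and 7.71 CPM in mutants and 124, 99.6 and 70.0 CPM in wild types (-2.17 ± 0.40, edgeR adjusted p = 0.0233), and crp3 had 122, 132 and 145 CPM in mutants and 53, 57.3 and 96.0 CPM in wild types (0.95 ± 0.20, edgeR adjusted p = 0.04). Mutants and wild types did not overlap in either, though wild type 3 stood near the mutants for crp3. The crp2 call ended without mutant 2, wild type 1 or wild type 2 (0.0668, 0.064 and 0.0564) and the crp3 call without any library but wild type 3 (up to 0.132), and both were lost with a robust dispersion (0.189 and 0.0957). crp4, picked after its values were seen, had 35.9, 32.3 and 22.1 CPM in mutants and 52.2, 48.2 and 48.9 CPM in wild types (-0.73 ± 0.16, edgeR adjusted p = 0.0492). Summed, the 5 crp genes held 190 ± 13.8 CPM in mutants and 232 ± 16.7 CPM in wild types. Whether estimated counts were split between crp genes, which would make levels of single members uncertain, was not tested.

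Embryonic beta globin RNA was uneven among wild types. hbbe1.1 had 117, 118 and 73.4 CPM in mutants and 1772, 199 and 1603 CPM in wild types (-3.54 ± 0.63, edgeR adjusted p = 0.0223). Wild type 2 was close to the mutants, and the call was kept only without wild type 2 among the leave-one-out fits (otherwise up to 0.102). The hbbe1.1 call was also lost with a robust dispersion (edgeR adjusted p = 0.203) and with a replicate block (0.0625). Together hbbe1.1 and hbbe2 held 1140, 1732 and 1046 CPM in mutants and 3430, 1752 and 2753 CPM in wild types. The other 20 of 21 erythroid genes did not pass. zgc:92066, listed under the ferritin synonym fthl27, had 97.0, 101 and 127 CPM in mutants and 260, 170 and 184 CPM in wild types (-0.91 ± 0.17, edgeR adjusted p = 0.0232, lost without mutant 1 or mutant 2 at 0.101 and 0.0772). With hpx it made 2 of 20 iron handling genes that fell (10%, against 1.12% of all genes). The mutant libraries lay wholly below the wild types for 6 of the 20 and wholly above for 1 (10.6% and 10.8% of all genes).

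Of 53 xenobiotic metabolism genes 2 fell (3.77%, against 1.12% of all genes) and 51 did not pass, with a median of 0.01. cyp1a, a monooxygenase that the aryl hydrocarbon receptor induces, had 56.4, 49.5 and 67.6 CPM in mutants and 130, 121 and 141 CPM in wild types, 2.25-fold lower (-1.17 ± 0.12, edgeR adjusted p = 0.00161). nqo1, a quinone reductase, had 74.2, 61.8 and 61.6 CPM in mutants and 110, 102 and 114 CPM in wild types (-0.72 ± 0.10, edgeR adjusted p = 0.00757). Of 35 glutathione and redox genes 2 rose (5.71%, against 0.786% of all genes), 1 fell (2.86%, against 1.12%) and 32 did not pass. The fall was that of nqo1, which stands in both lists. txnipb, a regulator of thioredoxin, rose by 0.83 ± 0.12 (edgeR adjusted p = 0.00763). gpx4a, a glutathione peroxidase, rose by 0.57 ± 0.11 (edgeR adjusted p = 0.0319). The calls of cyp1a, nqo1 and txnipb held without any 1 library, and that of gpx4a was kept only without wild type 1 among those fits (otherwise up to 0.109).

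Other named falls came from several tissues. map1lc3b, which encodes the autophagosome protein LC3B, had 37.5, 40.3 and 36.1 CPM in mutants and 74.3, 72.2 and 72.0 CPM in wild types, with little spread in either genotype (-0.94 ± 0.09, edgeR adjusted p = 0.00124). The other 23 autophagy and muscle atrophy genes did not pass. klf2a, a transcription factor that blood flow induces in endothelium, had 34, 33.6 and 54.5 CPM in mutants and 231, 143 and 89.5 CPM in wild types (-1.92 ± 0.31, edgeR adjusted p = 0.0134), lost without mutant 1 or mutant 2 (0.0656 and 0.0549) and with a robust dispersion (0.132). anxa1b, an annexin of the skin, had 44.4, 52.4 and 32.6 CPM in mutants and 98.7, 80.2 and 88.8 CPM in wild types (-1.05 ± 0.16, edgeR adjusted p = 0.00968). pkp3a, a desmosome protein, fell by 0.59 ± 0.12 on the log2 scale (edgeR adjusted p = 0.04), kept only without wild type 2 in leave-one-out fits. anxa1b and map1lc3b held without any 1 library. Of 46 epidermis genes 2 fell (4.35%, against 1.12% of all genes) and 0 rose, with a median of -0.20. Without wild type 2 there were 6 lower, without any other library 1, and DESeq2 called 5 lower and 1 higher.

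Median log2 fold changes were 0.08 for fast muscle, 0.05 for slow muscle and heart and 0.04 for fatty acid synthesis and lipid storage genes. Of the 29 genes of the last list, 1 rose and 1 fell (3.45% each, against 0.786% and 1.12% of all genes). pygma, the muscle glycogen phosphorylase, had 189, 188 and 213 CPM in mutants and 105, 108 and 112 CPM in wild types (0.86 ± 0.09, edgeR adjusted p = 0.00172), held without any 1 library, and had a larger effect than at 5 day (-0.02 ± 0.12 there, edgeR adjusted p of the difference 0.0109). ampd1, the AMP deaminase of muscle (0.60 ± 0.11), and cacna1sb, the calcium channel that triggers its contraction (0.56 ± 0.12), rose among 43 fast muscle genes (4.65%, against 0.786% of all genes). The mutant libraries lay wholly above the wild types for 13 of the 43 and wholly below for 2 (10.8% and 10.6% of all genes). Among 30 slow muscle and heart genes myl10, a myosin light chain, fell (-0.67 ± 0.12), which is 3.33% against 1.12% of all genes. Those 3 calls were lost in 4, 5 and 3 leave-one-out fits (edgeR adjusted p up to 0.0801, 0.152 and 0.0897), myl10 without mutant 1, 2 or 3. gpam, the acyltransferase that starts triglyceride synthesis, rose by 0.67 ± 0.11 and elovl5, a fatty acid elongase, fell by 0.59 ± 0.10 on the log2 scale, each lost in 3 and 4 such fits (up to 0.0547 and 0.0795).

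The interferon and lymphocyte lists gave 1 call each. ifit15, an interferon-induced gene, fell by 0.98 ± 0.19 on the log2 scale (edgeR adjusted p = 0.0314) and was lost whichever library was left out (0.0552 to 0.113). It was the single call among 30 interferon response genes (3.33%, against 1.12% of all genes lower), whose median was -0.32. The mutant libraries lay wholly below the wild types for 8 of the 30 and wholly above for 1 (10.6% and 10.8% of all genes). cd74a, the invariant chain of MHC class II, averaged 5.13 ± 0.17 CPM in mutants and 11 ± 1.75 CPM in wild types (-1.09 ± 0.18, edgeR adjusted p = 0.0139, lost without mutant 1 at 0.0623). It was the single call among 14 lymphocyte genes (7.14%, against 1.12% of all genes lower), whose median was -0.30. For 5 of the 14 the mutant libraries lay wholly below the wild types, and for 0 wholly above. Of 30 inflammation and myeloid genes 0 passed in edgeR and 0 in DESeq2, and 6 had an unadjusted p under 0.05. rrm1, a subunit of ribonucleotide reductase, was the single call among 54 cell cycle genes (1.85%, against 0.786% of all genes higher). It rose by 0.42 ± 0.09 (edgeR adjusted p = 0.0436) and was lost whichever library was left out (up to 0.177). Of the 54 genes, 45 had a positive fold change, with a median of 0.13. The mutant libraries lay wholly above the wild types for 14 of them and wholly below for 0 (10.8% and 10.6% of all genes).

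A further 13 of the 19 lists with 0 calls in edgeR covered other tissues and processes. They were fasting and gluconeogenesis (32 tested), cholesterol synthesis (30), glucocorticoid response (19), neurons (51), glia and myelin (32), bone and cartilage (41), ionocytes (34), p53 response (17), hypoxia response (34), germ cells (8), ribosomal proteins (73), oxidative phosphorylation (86) and proteasome (40). Their medians lay between -0.12 for germ cells and 0.16 for neurons. Over the 624 genes of all 19 lists, 83 had an unadjusted p under 0.05 and DESeq2 called 5 higher and 2 lower. Over all genes tested 3514 had an unadjusted p under 0.05.

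Set against the effect at 5 day, 530 genes differed, 2.3% of 22998 genes tested: 367 had a higher and 163 a lower log2 effect at 9 day (1.6% and 0.709%). The higher share was 69.2% with TMM factors, 77% with DESeq2 size factors and 88.8% with scaling by library size, and the median of all genes moved to 0.13 with library size, against -0.03 with TMM. The count was 295, 338 and 346 without 5 day mutant 2, 1 or 3, 325 and 842 without 5 day wild type 1 or 3, 330 without 9 day mutant 1 and 316 without 9 day wild type 2. irg1, an immune-induced enzyme gene of macrophages, had a log2 effect of 0.02 ± 0.38 at 9 day, against -5.14 ± 0.29 at 5 day, and the macrophage gene mpeg1.2 had -0.71 ± 0.22 at 9 day, against -3.79 ± 0.20 at 5 day. mmp9, a matrix metalloprotease of inflammation (0.19 ± 0.22 at 9 day, -2.24 ± 0.15 at 5 day), and the antiviral gene mxc (0.47 ± 0.23 at 9 day, -3.09 ± 0.24 at 5 day) also differed. In wild types irg1 averaged 1.78 CPM at 9 day and 22.7 CPM at 5 day, and mpeg1.2 24.9 and 117 CPM. mmp9 averaged 8.25 and 29.85 CPM there, and mxc 6.88 and 33.3 CPM. In 9 day mutants irg1 averaged 1.83 CPM, so its 9 day effect rests on few counts. Of 32 inflammation and myeloid genes 12 had a higher effect at 9 day, and of 30 interferon genes 8. At 5 day 21 of 30 inflammation genes were lower in mutants (7.84% of all genes tested there were).

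In the other direction, 9 of 46 epidermis genes had a lower effect at 9 day than at 5 day, and 0 a higher one. Of all genes tested 0.709% had a lower and 1.6% a higher effect. The skin keratin krtt1c19e had -0.11 ± 0.13 at 9 day and 1.63 ± 0.11 at 5 day, and cyt1 had 0.15 ± 0.16 at 9 day and 1.81 ± 0.16 at 5 day. The muscle actin gene acta1b had 0.29 ± 0.15 at 9 day and 1.71 ± 0.10 at 5 day, and the clock gene per1b 0.05 ± 0.09 at 9 day and 1.37 ± 0.13 at 5 day. klf2a had opposite signs at these stages, -1.92 ± 0.31 at 9 day and 0.54 ± 0.12 at 5 day, and both passed.

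**Figure D5:**
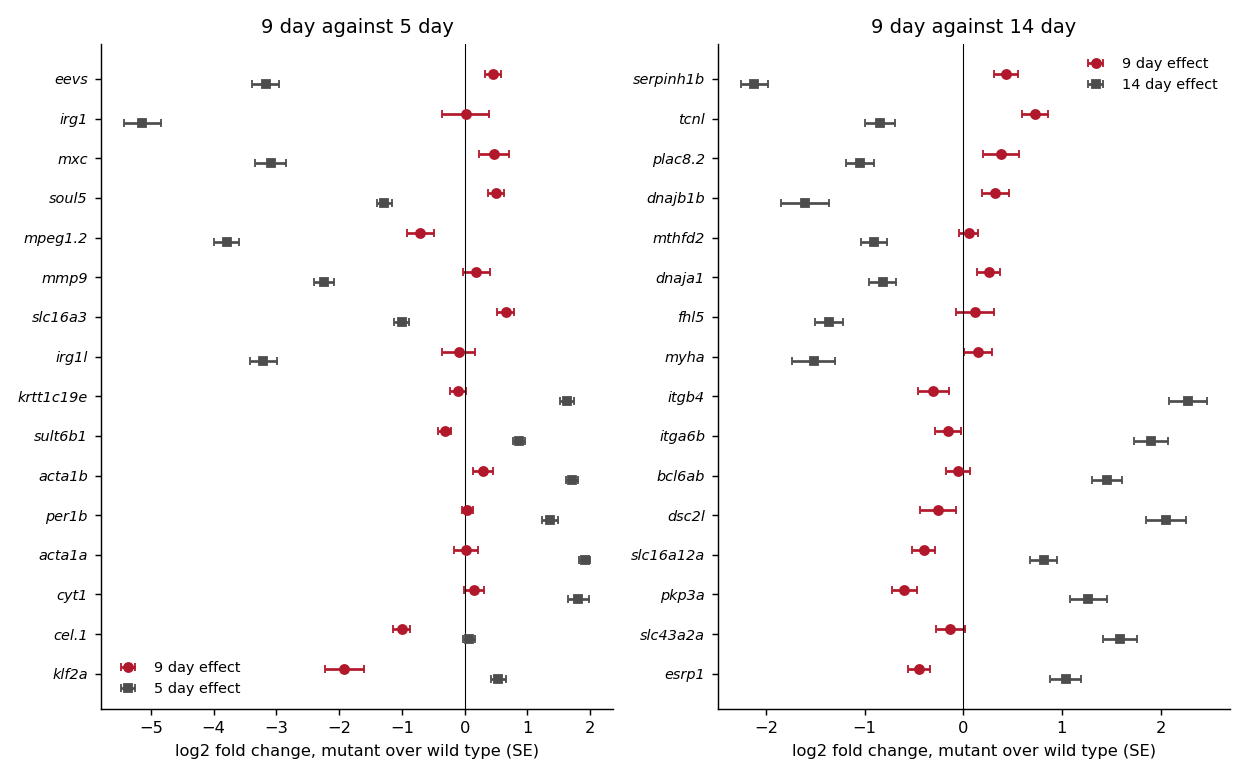
Log2 fold changes, mutant over wild type (x axis, bars are SE), at 9 day (circles) and, as squares, at 5 day (left panel) or 14 day (right panel), for the genes with the smallest p in the test of the difference, up to 8 per direction. Apart from cel.1, klf2a, slc16a3, tcnl and pkp3a, the genes plotted were not called at 9 day.

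Against the effect at 14 day 116 genes differed, 0.503% of 23049 tested, 34 higher and 82 lower at 9 day (0.148% and 0.356%). serpinh1b, the collagen chaperone, had a log2 effect of 0.44 ± 0.12 at 9 day and -2.12 ± 0.14 at 14 day (edgeR adjusted p of the difference 2.53e-05). The chaperone genes dnajb1b (0.32 ± 0.14 at 9 day, -1.60 ± 0.24 at 14 day) and dnaja1 (0.26 ± 0.12 at 9 day, -0.82 ± 0.13 at 14 day) also had a higher effect at 9 day. Among genes with a lower effect, itgb4 and itga6b, the hemidesmosome integrin chains, had -0.30 ± 0.16 and -0.15 ± 0.14 at 9 day, against 2.28 ± 0.19 and 1.90 ± 0.17 at 14 day. pkp3a was called in opposite directions, at -0.59 ± 0.12 at 9 day and 1.27 ± 0.19 at 14 day. The count was 59, 56 and 68 without 9 day mutant 1, 2 or 3, 58 and 48 without 9 day wild type 1 or 3, and 76, 75 and 68 without 14 day mutant 1, 2 or 3. dnaja1 was lost without 9 day mutant 1 (edgeR adjusted p = 0.0509).

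Calls at 9 day were in part shared with the neighbouring stages, whose libraries come from other larvae. Of the 174 genes higher at 9 day, 65 were also higher at 5 day (37.4% of the 9 day genes and 4.89% of the 1328 higher at 5 day) and 12 lower, and 55 were also higher at 14 day (31.6% and 10.7% of 515) and 1 lower. Of the 248 genes lower at 9 day, 94 were also lower at 5 day (37.9% and 5.58% of 1686) and 2 higher, and 102 were also lower at 14 day (41.1% and 18.3% of 558) and 3 higher. Over all genes, 14% were called at 5 day and 4.8% at 14 day: 6.17% were higher and 7.84% lower at 5 day, and 2.31% and 2.5% at 14 day. Genes called higher at all 3 stages included kctd15a, kctd15b, rxfp2a, her15.1, hspb1 and crp3, and kbtbd7, irgf3, crp2, hbbe1.1, map1lc3b and zgc:92066 were called lower at all 3. The 102 genes shared with 14 day included 12 with 0 counts in 9 day mutants, and the 94 shared with 5 day included 3. kbtbd7 and irgf3 were likewise close to absent in mutants at all 3 stages. Such genes could pass the count filters only through the wild types, so their shared calls were largely fixed in advance. For them the share of all genes is no fair yardstick.

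Beside these calls stood the change with age in wild types. Between 14 day and 5 day wild types 11033 of 22296 genes differed (49.5%), 5677 higher and 5356 lower at 14 day, or 3222 and 9090 with scaling by library size alone, which moved the median of all genes by -0.35. Of the 174 genes higher in 9 day mutants, 36 of 154 tested were higher and 60 were lower in 14 day wild types than in 5 day wild types (23.4% and 39%). Of the 248 genes lower in 9 day mutants, 109 of 240 tested were higher and 24 lower in 14 day wild types (45.4% and 10%). Of all genes tested 25.5% were higher and 24% lower. per2, cry5 and cry-dash, all higher in 9 day mutants, were lower in 14 day than in 5 day wild types (log2 -1.19, -2.04 and -1.94). opn1mw2, cel.1, klf2a, hpx and cd74a, all lower in 9 day mutants, were higher in 14 day than in 5 day wild types (3.81, 1.18, 3.43, 3.42 and 5.19). cfd, hsp70l and hsp90aa1.1 were higher both in mutants at 9 day and in older wild types (2.00, 3.49 and 2.25), and cyp1a was lower in both (-2.33). These 12 genes were picked from the called genes without a rule, so they do not stand for all called genes. Their directions were the same under all 3 scalings, and the part of age or growth in the mutant effect was not tested.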

How the data were processed

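Whole larvae were measured by strand-specific polyA RNA-seq. Reads were trimmed with Trimmomatic 0.36, quantified with kallisto 0.43.0 and handled in edgeR, with the genome build GRCz10, per the submitters' processing notes. Values used were estimated counts per gene (expected counts, not normalized) as the authors deposited them, 84.1% of them not whole. They were rounded here. Genes were filtered with filterByExpr, scaled with TMM factors (0.935 to 1.04 at 9 day) and tested with edgeR 4.0.16's quasi-likelihood test under R 4.3.3. P-values were adjusted by Benjamini-Hochberg over the genes tested, with a threshold of 0.05. Each comparison was fitted on its own groups. CPM use the scaled library sizes, and SE is the log2 fold change divided by the square root of F. The test was checked on simulated data.

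Genes named are kctd15 and AP-2 family genes, the 10 largest rises and falls among called genes with a symbol, groups that do not overlap and a mean of at least 1 CPM, the same at 50 CPM or more, up to 4 called genes per list by smallest p, and up to 8 per direction for each stage difference at 5 CPM or more. Other genes, among them paralogs of these and further members of the lens and pancreas lists, were picked after their values were seen. The 41 lists, matched by symbol or by synonym in RefSeq's gene table, and the members were chosen with earlier results of these data known. Intervals and the floor of 3 counts cover counting error only. Alternatives were DESeq2 1.42.0, other scalings and filters, a robust dispersion, a replicate block, a fit of all 36 libraries and leaving out each library. Replicate numbers showed no sign of pairing the libraries: deviations of same-numbered libraries had correlations of -0.041, -0.059 and 0.058. Those of other pairs ran from -0.167 to 0.192. The labels do not say whether the numbers pair libraries, and these values cannot exclude it. Sequences of the members were not used here.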

Additional observations from a re-analysis of the deposited data

Results flagged for a closer look

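The mutant effect at 9 day differed from that at 5 day in 530 genes and from that at 14 day in 116 genes by edgeR's test of the difference itself, which brought the genes below to attention. Each value is a log2 difference of effects, 9 day minus the other stage, and each passed at an adjusted p under 0.05.

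Among immune genes, the effect at 9 day exceeded that at 5 day by 5.11 for irg1, 3.08 for irg1l, 3.51 for mxc, 3.04 for mpeg1.2 and 2.39 for mmp9. It exceeded the 5 day effect by 3.58 for eevs, 2.68 for rnh1, 2.51 for enpp7.2, 1.73 for soul5, 1.61 for slc16a3, 1.25 for rxfp2a, 0.84 for pygma, 0.81 for tcnl and 0.61 for mthfd2. enpp7.2 did not pass the count filter of the 5 day comparison, with 0.40 CPM in 5 day mutants and 0.88 CPM in 5 day wild types. Among clock, photolyase and chaperone genes the difference was 1.17 for cry5, 0.92 for cry-dash, 0.82 for per2, 2.42 for hsp70.1, 1.03 for dnajb1b and 0.82 for hsp90aa1.1. For bcl6ab, a transcriptional repressor, it was 1.26. Part of these differences came with falls at 5 day: eevs had 0.45 at 9 day and -3.17 at 5 day, irg1l -0.09 and -3.21, and soul5 0.50 and -1.28. Likewise mthfd2 had 0.06 and -0.59 and bcl6ab -0.05 and -1.35, and none of these genes was called at 9 day. Others were called higher at 9 day, such as rnh1 (2.23 at 9 day, -0.50 at 5 day) and rxfp2a (2.88 and 1.58).

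A lower effect at 9 day than at 5 day was found for the actin genes acta1a (-1.93) and acta1b (-1.45), for the keratin genes krtt1c19e (-1.77) and cyt1 (-1.70), and for klf2a (-2.49), per1b (-1.36), sult6b1 (-1.22) and cel.1 (-1.11).

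Against 14 day, the effect at 9 day was higher by 2.55 for serpinh1b, 1.92 for dnajb1b, 1.07 for dnaja1, 1.66 for myha, 1.48 for fhl5, 1.56 for tcnl, 1.42 for plac8.2, 1.01 for cfd and 0.96 for mthfd2. It was lower for the epithelial junction genes itgb4 (-2.58), itga6b (-2.06), dsc2l (-2.31) and pkp3a (-1.87). It was also lower for cbln6 (-4.22), cfhl1 (-2.03), zgc:112320 (-2.42), slc43a2a (-1.73), bcl6ab (-1.51), esrp1 (-1.49) and slc16a12a (-1.22). fhl5 was lost without 9 day wild type 3 (adjusted p = 0.0584) or 14 day mutant 3 (0.0534), and dnaja1 without 9 day mutant 1 (0.0509). myha was lost without 9 day mutant 1 or 2, 9 day wild type 2 or 3 or 14 day mutant 3 (0.0509 to 0.0681).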

How the results depend on the processing

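The count of 422 genes at 9 day was 640 with DESeq2, 750 in one fit of all 36 libraries and 205 to 375 when 1 library was left out. It was 424 to 497 with other scalings, no filter or a robust dispersion. A 1 CPM filter kept 22143 genes, as the main filter did, and gave the same 422 calls, so it is no separate check. The count for the 9 day against the 5 day effect, 530, was 809 with DESeq2, 818 with scaling by library size and 295 to 842 without 1 library. That for 9 day against 14 day, 116, was 286 with DESeq2 and 48 to 99 without 1 library. The 11033 genes that differed with age in wild types were 9359 to 10722 without 1 library.

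Of the 73 genes named for the 9 day comparison 68 were called, and 31 of these kept the call whichever library was left out. tfap2c passed with DESeq2, with library size scaling and in the fit of all libraries (-0.45, -0.50 and -0.43). The log2 fold change of tfap2a, -0.003, changed sign with no filter (0.0019), in the fit of all libraries (0.016) and with 1 library left out (-0.072 to 0.034). The causes were not tested.

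With the replicate block, though the numbers showed no sign of pairing, 357 genes were called at 9 day, 307 of them among the 422. In the other comparisons 408, 87 and 10093 genes were called. The log2 fold change of tfap2a was 8.5e-06 with the block. At the depth of these libraries, genes near 1 CPM rest on few counts.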
